A study of Rattus norvegicus with 12 samples.

Results

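Adam11, Rbpjl, Tle2 and Col16a1 were 4 genes chosen because earlier work on these libraries placed them among the genes with the strongest nominal shifts after galinex (GAL), a small molecule that activates the membrane receptor GPR17. They were 4 of 13348 genes tested and of 30562 genes in the annotation. The choice rested on the comparisons of GAL-treated with vehicle-treated libraries, so every GAL value of these genes is a description and carries no test. The cytokine effect averaged over both GAL levels is orthogonal to every GAL comparison, and it was tested. It includes the libraries of CTK-2 versus CTL, the study's comparison through which the genes were named. Its p-values are therefore not independent of the naming.

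RNA was sequenced from 12 libraries of primary oligodendrocyte precursor cells (OPCs), isolated from the cortex of wild-type Sprague-Dawley rat pups, both sexes pooled (postnatal day 2 in the labels, days 0 to 2 in the methods), and kept in differentiation medium. CTL libraries (n = 3) received neither cytokines nor GAL, only the DMSO vehicle. GAL libraries (n = 3) received 10 nM galinex without cytokines. CTK-2 libraries (n = 3) received the cytokines IFN-γ, TNF-α and IL-1β, each at 2 ng/mL, and vehicle 6 h later. CTK2+GAL libraries (n = 3) received the same cytokines and then galinex, and RNA of all groups was collected 24 h after galinex or vehicle. The labels do not say that replicates came from separate cultures, so p-values measure only the spread between these libraries. The cells were grown from mixed glia, and in such bulk RNA fewer cells of a type and less RNA per cell cannot be told apart.

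The 4 genes belong to unrelated protein families. ADAM11 is a membrane protein of the disintegrin and metalloprotease family that lacks a working protease site and, like ADAM22 and ADAM23, binds secreted LGI proteins. RBPJL is a relative of RBPJ, the DNA-binding protein of Notch signalling; it does not take up the Notch intracellular domain and is best known as a subunit of the PTF1 complex in pancreatic acinar cells. TLE2 is a Groucho-type corepressor, which does not bind DNA itself and is recruited by factors such as TCF/LEF, RUNX, HES and NKX2-2. COL16A1 is the chain of type XVI collagen, a collagen that associates with fibrils and other matrix proteins rather than forming large fibrils itself.

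On the mRatBN7.2 build used for counting, Adam11 (ENSRNOG00000002753) lies on the plus strand at chr10:87724234-87741562 and has 3409 exonic bases. Rbpjl (ENSRNOG00000026295) lies on the plus strand at chr3:153134140-153146513 with 2592 exonic bases, and 1 gene overlaps it on the other strand. Tle2 (ENSRNOG00000005874) lies on the minus strand at chr7:8119053-8134306 with 2574 exonic bases. Col16a1 (ENSRNOG00000031475) lies on the plus strand at chr5:142388426-142442825 with 5319 exonic bases. Read pairs were counted over exons and by strand, and no gene overlaps any of the 4 on its own strand.

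The start-site sequences are shown because several of the families described above act through DNA motifs. RefSeq promoters of the GRCr8 build were held for 3 of the 4 genes, and Adam11 was not in the table. Each run covers 250 bases before to 50 bases after the start site, read along the gene's own strand, and capitals mark TGGGAA, the hexamer bound by RBPJ and RBPJL. The regions are chr3:173553248-173553547 (plus strand) for Rbpjl, chr7:8785016-8785315 (minus strand) for Tle2 and chr5:147672846-147673145 (plus strand) for Col16a1.
Rbpjl: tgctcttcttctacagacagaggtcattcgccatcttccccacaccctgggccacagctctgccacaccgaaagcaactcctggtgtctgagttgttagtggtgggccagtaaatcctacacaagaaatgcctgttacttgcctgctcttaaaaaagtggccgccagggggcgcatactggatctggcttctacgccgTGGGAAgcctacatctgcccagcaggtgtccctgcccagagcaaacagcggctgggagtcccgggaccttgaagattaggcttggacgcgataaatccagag
Tle2: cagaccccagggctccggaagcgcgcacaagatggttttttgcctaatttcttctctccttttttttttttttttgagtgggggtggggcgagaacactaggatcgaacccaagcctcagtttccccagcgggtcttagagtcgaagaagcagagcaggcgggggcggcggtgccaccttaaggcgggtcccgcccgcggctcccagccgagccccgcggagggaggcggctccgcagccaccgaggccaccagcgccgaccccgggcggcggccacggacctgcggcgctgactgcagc
Col16a1: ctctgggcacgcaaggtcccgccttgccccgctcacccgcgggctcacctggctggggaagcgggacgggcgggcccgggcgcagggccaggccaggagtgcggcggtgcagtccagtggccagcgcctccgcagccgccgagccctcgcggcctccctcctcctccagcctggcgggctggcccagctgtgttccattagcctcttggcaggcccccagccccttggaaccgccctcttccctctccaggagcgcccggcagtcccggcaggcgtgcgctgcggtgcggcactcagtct

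Of the 3 promoters searched on both strands, Rbpjl alone held TGGGAA, at bases -52 to -47 from the start site. E-boxes (CANNTG), the sites of the basic helix-loop-helix partners in PTF1, followed it in the Rbpjl promoter at -41 to -36 and at -30 to -25. The Col16a1 promoter also held E-boxes, at -205 to -200 and at -66 to -61, and Tle2 held none. GC boxes (GGGCGG) were found 3 times in the Tle2 promoter and 2 times in that of Col16a1. TATAAA, the letters of the TATA box, was found in none of the 3. Among 33469 promoters of the same length, 25.7% held TGGGAA, 72.1% an E-box, 33.1% a GC box and 14.2% TATAAA. The GC content was 55.7% for Rbpjl, 65.7% for Tle2 and 75.0% for Col16a1, against a median of 51.7%. Such matches are letters in a window, and no binding was measured here.

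The library totals lay between 2600797 counts (GAL replicate 1) and 8978185 counts (CTK2+GAL replicate 3). At a given level, relative counting error was therefore largest in GAL replicate 1. Adam11 and Rbpjl, which were low with cytokines, had their fewest counts in CTK2+GAL (160 in replicate 1 and 137 in replicate 2). The oligodendrocyte lineage markers Pdgfra and Mag were present in all groups. In CPM (counts scaled to a common normalized library size), Pdgfra, a receptor of precursor cells, averaged 415 ± 27.2 (SD, n = 3) in CTL, 414 ± 38.7 in GAL, 701 ± 36.0 in CTK-2 and 703 ± 49.5 in CTK2+GAL. Mag, a gene of myelinating cells, averaged 177 ± 22.8, 164 ± 10.9, 81.0 ± 7.29 and 81.5 ± 1.92 CPM in the same order. CTL replicate 3 and GAL replicate 3 stood apart from their groups towards the cytokine state. In CTL replicate 3, 75.4% of 1558 cytokine-raised genes lay above the mean of the other CTL libraries, and in GAL replicate 3, 68.7% of 1538 such genes did so. The GAL versus CTL values, the cytokine values and the values of the averaged GAL difference are therefore also given without them.

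All 4 genes were lower with GAL than with vehicle both without and with cytokines, while the cytokines lowered 2 of them and raised the other 2. Adam11 and Rbpjl fell with cytokines, and their GAL difference had the same sign. Tle2 and Col16a1 rose with cytokines, and their GAL difference had the opposite sign. With all libraries, the cytokine differences were larger in size than the GAL differences for each of the 4 genes. For Tle2 this depended on CTL replicate 2. Without that library its log2 fold change was 0.73 in CTK-2 versus CTL and -0.83 in GAL versus CTL.

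**Figure D1:**
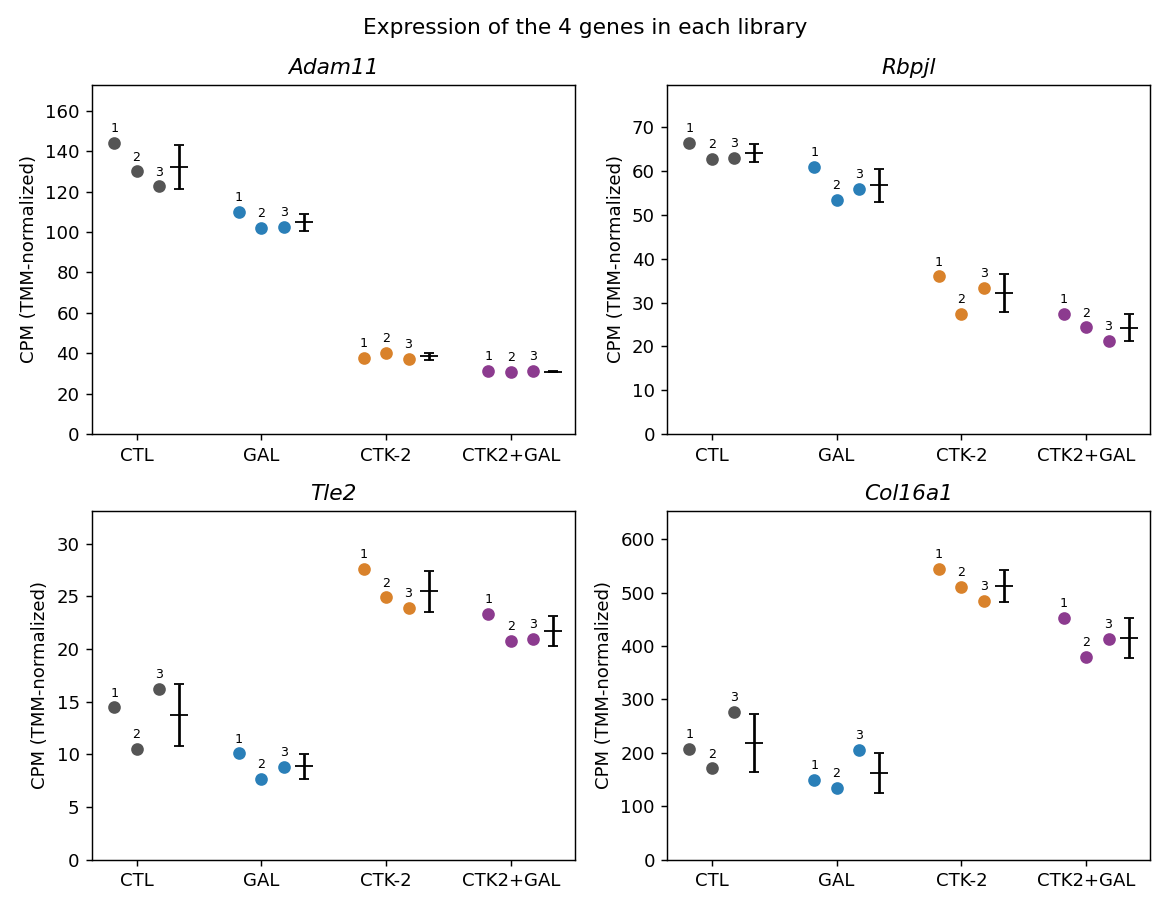
Level of each gene in CPM (TMM-normalized, linear axis from 0) in the 12 libraries by group, with points numbered by replicate and black marks for the mean ± SD of 3 libraries. Adam11 and Rbpjl step down from the cytokine-free to the cytokine groups and Tle2 and Col16a1 step up, and within each pair the GAL group has the lower mean.

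Adam11 had the smallest spread between replicates. Its level was 144, 130 and 123 CPM in the 3 CTL libraries, 110, 102 and 103 CPM in GAL, 37.6, 40.2 and 37.2 CPM in CTK-2 and 31.1, 30.5 and 31.0 CPM in CTK2+GAL. The 4 groups followed each other without any overlap, from CTL at the top to CTK2+GAL at the bottom. The group means were 132 ± 10.9 (SD, n = 3) for CTL, 105 ± 4.39 for GAL, 38.3 ± 1.58 for CTK-2 and 30.9 ± 0.31 for CTK2+GAL. The fitted GAL difference was -21.2% without cytokines (log2 fold change -0.34, SE 0.065) and -19.5% with them (-0.31, SE 0.083), so the relative difference was nearly the same at both levels of expression. In absolute terms the GAL difference was -27.4 CPM without cytokines and -7.46 CPM with them.

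Rbpjl followed the same order of groups with narrower gaps. Its level was 66.4, 62.8 and 63.1 CPM in CTL, 60.9, 53.4 and 55.9 CPM in GAL, 36.0, 27.4 and 33.3 CPM in CTK-2 and 27.4, 24.3 and 21.2 CPM in CTK2+GAL. No neighbouring groups overlapped, but CTK-2 replicate 2 and CTK2+GAL replicate 1 lay only 0.102% apart, and when levels were scaled to the library totals these groups overlapped. The means were 64.1 ± 2.01 (SD, n = 3), 56.7 ± 3.82, 32.3 ± 4.37 and 24.3 ± 3.13 CPM in the same order of groups. The fitted GAL difference was -12.5% without cytokines (log2 fold change -0.19, SE 0.094) and -25.6% with them (-0.43, SE 0.11). The absolute differences were alike, at -7.36 and -7.96 CPM.

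Tle2 had the lowest counts of the 4 genes. Its level was 14.5, 10.5 and 16.2 CPM in CTL, 10.1, 7.70 and 8.77 CPM in GAL, 27.6, 24.9 and 23.9 CPM in CTK-2 and 23.3, 20.8 and 20.9 CPM in CTK2+GAL. GAL was the lowest group and CTK-2 the highest, and neither pair of GAL and vehicle groups overlapped. The edges were close: 26 counts in GAL replicate 1 gave 10.1 CPM with a 95% exact Poisson interval of 6.59 to 14.8, and 53 counts in CTL replicate 2 gave 10.5 CPM with an interval of 7.89 to 13.8. These intervals cover counting error only. The means were 13.7 ± 2.91 (SD, n = 3), 8.85 ± 1.19, 25.5 ± 1.92 and 21.7 ± 1.43 CPM from CTL to CTK2+GAL. The fitted GAL difference was -38.0% without cytokines (log2 fold change -0.69, SE 0.17) and -15.1% with them (-0.24, SE 0.13).

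Col16a1 had the highest counts and the widest spread between replicates on the log2 scale. Its level was 208, 171 and 277 CPM in CTL, 149, 134 and 206 CPM in GAL, 544, 510 and 484 CPM in CTK-2 and 452, 379 and 413 CPM in CTK2+GAL. CTL and GAL overlapped, because GAL replicate 3 lay above CTL replicate 2 and nearly level with CTL replicate 1. CTK-2 and CTK2+GAL did not overlap. The means were 218 ± 53.8 (SD, n = 3), 163 ± 37.7, 513 ± 30.1 and 415 ± 36.6 CPM from CTL to CTK2+GAL. The fitted GAL difference was -25.2% without cytokines (log2 fold change -0.42, SE 0.15) and -19.1% with them (-0.31, SE 0.14).

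The spread of Col16a1 in CTL and GAL went with the libraries that stood apart, since replicate 3 was the highest library of both groups. Without CTL replicate 3 alone the GAL versus CTL difference of Col16a1 was -0.20 on the log2 scale, and without GAL replicate 3 alone it was -0.63. Without both it was -0.43 (SE 0.092). The Tle2 difference was -0.55 without CTL replicate 3, -0.83 without CTL replicate 2, and -0.57 without both replicates 3. For Adam11 and Rbpjl the values without both replicates 3 were -0.38 and -0.20.

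Between genes, levels can be compared only per length. In CPM per kilobase of exon, the CTL means were 41.1 ± 10.1 (SD, n = 3) for Col16a1, 38.8 ± 3.19 for Adam11, 24.7 ± 0.78 for Rbpjl and 5.34 ± 1.13 for Tle2. Col16a1 and Adam11 did not differ beyond their spread, and Rbpjl and Tle2 lay below them in turn. In CTK-2 the order was Col16a1 at 96.4 ± 5.65, Rbpjl at 12.4 ± 1.69, Adam11 at 11.2 ± 0.46 and Tle2 at 9.89 ± 0.75 CPM per kilobase. Rbpjl and Adam11 then did not differ beyond their spread. In GAL the order began with Adam11 at 30.7 ± 1.29 and Col16a1 at 30.6 ± 7.09, which did not differ beyond their spread, followed by Rbpjl at 21.9 ± 1.47 and Tle2 at 3.44 ± 0.46. In CTK2+GAL the values were 78.0 ± 6.88 for Col16a1, 9.37 ± 1.21 for Rbpjl, 9.06 ± 0.09 for Adam11 and 8.42 ± 0.56 for Tle2, and the last 3 overlapped.

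The first question was whether each gene shifted with GAL in both backgrounds. On the log2 scale the averaged GAL difference was -0.33 (SE 0.053) for Adam11, -0.31 (SE 0.073) for Rbpjl, -0.46 (SE 0.11) for Tle2 and -0.36 (SE 0.10) for Col16a1. Without CTL and GAL replicates 3 these values were -0.35, -0.31, -0.40 and -0.37. In order of the F statistic among 13348 genes, Adam11 stood at position 1 in GAL versus CTL and 5 in CTK2+GAL versus CTK-2, and Rbpjl at 651 and 4. Tle2 stood at 3 and 926, and Col16a1 at 99 and 501. Adam11 was thus the one gene of the 4 that stood near the top in both backgrounds, while Tle2 and Col16a1 ranked higher without cytokines and Rbpjl ranked higher with them.

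**Figure D2:**
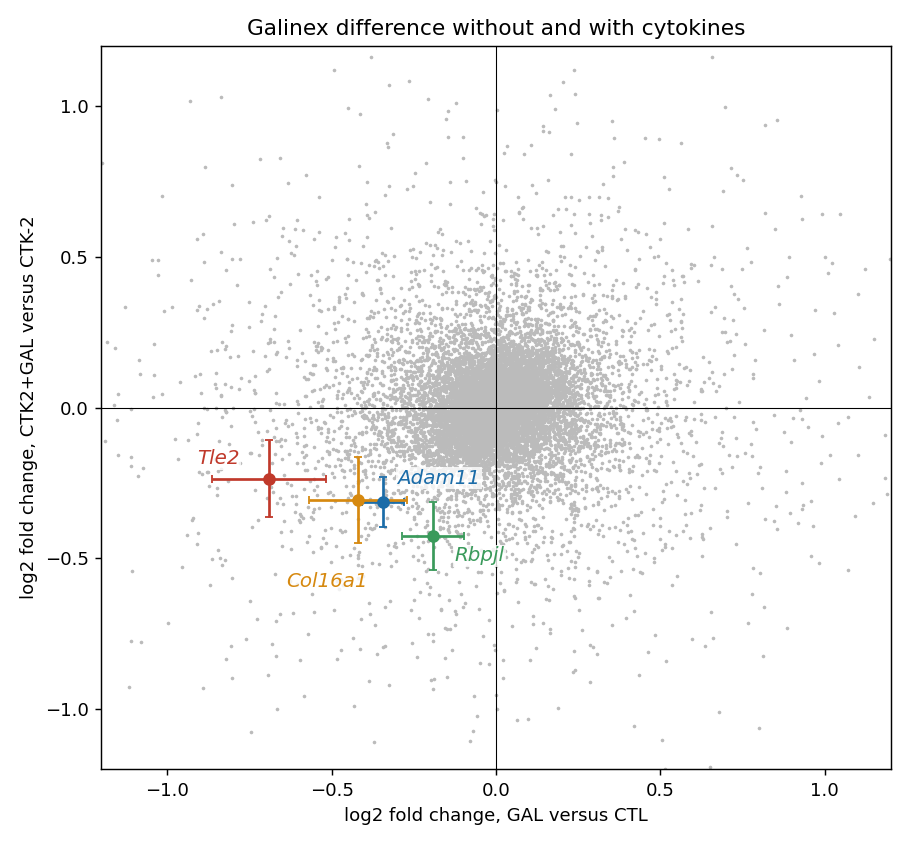
Log2 fold change of GAL versus CTL (horizontal axis) against CTK2+GAL versus CTK-2 (vertical axis), which share no library. Grey points are 13244 tested genes within the axes, 104 genes lie outside them, and the 4 coloured genes carry standard error bars. All 4 sit in the lower left, Tle2 farthest to the left and Rbpjl lowest.

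These positions describe the choice and not a call, because the GAL comparisons called almost nothing. By edgeR no gene reached an adjusted p of at most 0.05 in GAL versus CTL (0% of genes; 574 genes, 4.30%, at an unadjusted p of at most 0.05), in CTK2+GAL versus CTK-2 (0%; 545 genes, 4.08%) or in the averaged GAL effect (0%; 822 genes, 6.16%). DESeq2 gave 0, 0 and 1 gene, and that gene was Adam11 in the averaged effect, which belongs to the comparisons that chose it. Across all tested genes 27.9% had a GAL difference below 0 in both backgrounds. Libraries did not overlap for 3 of the 4 genes in GAL versus CTL, where 4.23% of all genes were lower without overlap, and for 4 of 4 in CTK2+GAL versus CTK-2, where 5.77% were. Adam11, Rbpjl and Tle2 met this in both backgrounds, as did 0.42% of all genes (56 genes). None of this is independent of how the 4 genes were chosen.

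CTL and GAL libraries of the same replicate number deviated together from their group means over 9412 genes of at least 10 CPM. CTL replicate 1 also went with GAL replicate 2 (r = 0.518, against 0.491 with GAL replicate 1). Only replicate 3 was thus set apart by number, and the numbers are not shown to pair replicates 1 and 2. The values were compared number by number as a description. The ratio of GAL to CTL was 0.762, 0.783 and 0.837 for Adam11 and 0.917, 0.851 and 0.886 for Rbpjl. It was 0.698, 0.731 and 0.541 for Tle2 and 0.717, 0.786 and 0.743 for Col16a1. All 12 of these ratios were below 1, which the choice of the genes by their GAL shifts favours. For Col16a1, whose groups overlapped, the ratios lay close together, but this rests on matching replicates 1 and 2 by number. CTK-2 and CTK2+GAL libraries did not deviate together in this way and were not paired.

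The signed log2 fold change of GAL with cytokines minus that without them was 0.03 (SE 0.11) for Adam11, -0.23 (SE 0.15) for Rbpjl, 0.45 (SE 0.22) for Tle2 and 0.11 (SE 0.21) for Col16a1. A value above 0 means that the gene was less far below its vehicle level with GAL when cytokines were present, as the fitted values of Tle2 had it, and one below 0 that it was farther below, as for Rbpjl. The Rbpjl value was -0.12 without CTK2+GAL replicate 3 and -0.15 without CTK-2 replicate 1, and that of Tle2 was 0.33 (SE 0.25) without CTL and GAL replicates 3. By edgeR no gene of the 13348 reached an adjusted p of at most 0.05 for this difference (376 genes, 2.82%, at an unadjusted p of at most 0.05), and DESeq2 also gave 0. For Adam11 and Col16a1 the sign changed when single libraries were left out. It became -0.04 for Adam11 without CTL replicate 1, and for Col16a1 -0.10 without CTL replicate 3 and -0.02 without GAL replicate 2.

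The second question was how the cytokines changed each gene. Averaged over both GAL levels, Adam11 fell by 1.77 on the log2 scale and Rbpjl by 1.11, and Tle2 and Col16a1 rose by 1.10 and 1.29. All 4 were called (adjusted p up to 0.05 and a log2 fold change of 0.59 or more in size), against 18.7% of all tested genes (12.7% higher, 6.02% lower). The adjusted p by edgeR's quasi-likelihood test was 6.32e-15 for Adam11 (SE 0.052), 3.02e-10 for Rbpjl (SE 0.073), 6.66e-08 for Tle2 (SE 0.11) and 6.68e-09 for Col16a1 (SE 0.10). A two-sided exact permutation test of log2(CPM + 0.5), with cytokine labels exchanged within each GAL level, gave p = 0.005 for each gene, the smallest that its 400 arrangements allow. This permutation took the libraries as independent and ignored that same-numbered CTL and GAL libraries deviated together. Without CTL and GAL replicates 3 the averaged change was -1.80, -1.12, 1.18 and 1.50 in the order above.

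**Figure D3:**
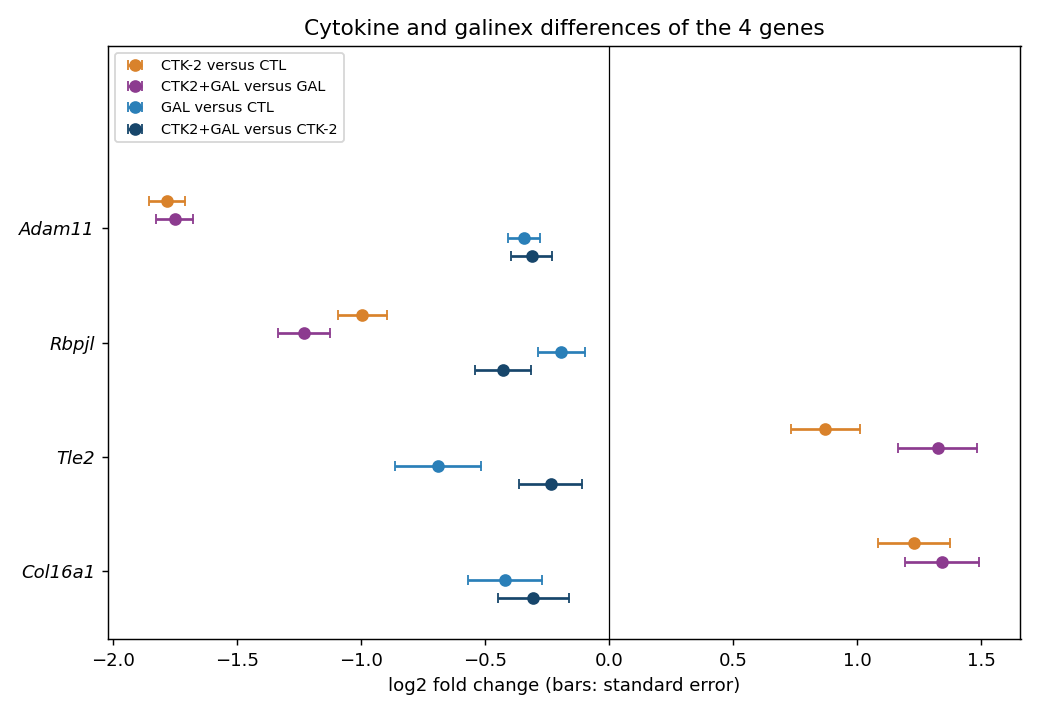
Log2 fold change with its standard error for the 4 genes in both cytokine comparisons (orange and purple) and both GAL comparisons (light and dark blue). The cytokine values lie below -0.9 for Adam11 and Rbpjl and above 0.8 for Tle2 and Col16a1, and all 8 GAL values lie between -0.7 and -0.1.

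A symbol could be given only to genes in the study's own table of CTK-2 versus CTL, so being named already implied a cytokine change in those libraries, and these calls are not independent evidence of direction. CTK2+GAL versus GAL used other libraries, although it shares them with the GAL comparisons. A low GAL level raises its value and a low CTK2+GAL level lowers it. The choice of the genes by GAL can therefore shift these values, and their p-values are not independent of it. There Adam11 was -1.75 (SE 0.075, adjusted p = 3.72e-12), Rbpjl -1.23 (SE 0.11, adjusted p = 2.96e-08), Tle2 1.33 (SE 0.16, adjusted p = 2.18e-06) and Col16a1 1.34 (SE 0.15, adjusted p = 8.49e-07) on the log2 scale. Without GAL replicate 3 and CTL replicate 3 they were -1.76, -1.23, 1.35 and 1.56. All 4 were called, against 17.4% of tested genes (11.7% higher, 5.74% lower). The libraries of the compared groups did not overlap for any of the 4, as for 49.5% of all genes. In CTK-2 versus CTL the values were -1.78 (SE 0.072) for Adam11, -0.996 (SE 0.10) for Rbpjl, 0.87 (SE 0.14) for Tle2 and 1.23 (SE 0.15) for Col16a1, given as a description, and 49.1% of all genes were without overlap. With both replicates 3 left out they were -1.83, -1.01, 1.01 and 1.44.

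Both treatments together left Adam11 and Rbpjl at their lowest level and Tle2 and Col16a1 between the control and the cytokine level. With all libraries, the change from CTL to CTK2+GAL was -76.6% for Adam11 and -62.7% for Rbpjl. It was 55.4% for Tle2 and 89.7% for Col16a1, both above CTL. In mean CPM, the cytokine difference of Col16a1 was 295 and the GAL difference in their presence -98.0, and for Tle2 these values were 11.7 and -3.79. For Adam11 the cytokine difference was -93.8 CPM and GAL added -7.46 CPM to it, and for Rbpjl the values were -31.8 and -7.96 CPM. These differences share the CTK-2 libraries.

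The markers of other cell types that could be named also differed with the cytokines. Names existed only for genes in the study's list of CTK-2 versus CTL, so a change was built into them. The markers without a name could not be judged. Of 6 fibroblast and pericyte markers, 1 could be named, and Col1a2, a chain of type I collagen, lay between 0.688 and 1.59 CPM in CTL, 1.34 and 1.94 in GAL, 6.36 and 7.97 in CTK-2 and 4.86 and 6.20 in CTK2+GAL. Of 6 microglial markers, 2 could be named (Csf1r and P2ry12), with a summed level of 1.72 to 6.65 CPM in CTL, 2.51 to 6.19 in GAL, 12.2 to 16.1 in CTK-2 and 11.9 to 14.0 in CTK2+GAL. Tubb3, the 1 named of 4 neuronal markers, lay at 81.7 to 89.0 CPM in CTL, 80.1 to 98.7 in GAL, 156 to 189 in CTK-2 and 171 to 181 in CTK2+GAL. Kdr, the 1 named of 4 endothelial markers, was at most 1.55 CPM without cytokines and at most 7.78 CPM with them. No gene of the 5 astrocyte markers could be named. No named marker list was at 0, and the part of these cells in the levels of the 4 genes was not tested.

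The genes around each member were set beside it to see whether neighbouring genes moved too. The nearest tested gene without overlap on each side gave 8 neighbours. Of these, 2 were called in the averaged cytokine effect, where 18.7% of all tested genes were. The gene that overlaps Rbpjl on the other strand was left out, and the neighbour before Rbpjl lay 306 kb away. Tle6, another Groucho-family gene, lies on the opposite strand to Tle2 and ends 0.414 kb from the end of Tle2. It rose with cytokines by 1.22 on the log2 scale (SE 0.18, adjusted p = 1.24e-05), close to the 1.10 of Tle2. Its level was 4.65, 3.18 and 6.65 CPM in CTL and 3.10, 3.01 and 4.81 CPM in GAL. It was 8.78, 11.8 and 11.1 CPM in CTK-2 and 11.7, 8.88 and 8.53 CPM in CTK2+GAL. The cytokine-free and cytokine groups of Tle6 did not overlap, while each GAL group overlapped its vehicle group, with differences of -0.39 (SE 0.30) and -0.16 (SE 0.21).

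Sdc4, which encodes the heparan sulfate proteoglycan syndecan-4, lies 8.38 kb past the end of Rbpjl on the opposite strand and rose by 1.57 on the log2 scale (SE 0.22, adjusted p = 7.8e-06), whereas Rbpjl fell. The other 6 neighbours had averaged cytokine differences of 0.01 to 0.43 in size and were not called. None of the 8 neighbours was separated from its vehicle group by GAL in both backgrounds. Of all tested genes, only 0.42% were lower without overlap in both, so this does not set the members apart. The GAL differences of the 8 neighbours ran from -0.39 to 0.06 without cytokines and from -0.16 to 0.10 with them.

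Family members and partners of the 4 genes could be described as far as they carried a symbol. A symbol required a place in the study's list of CTK-2 versus CTL, so a high share of called genes was built in. Over all tested genes, 11.7% were called higher and 5.74% lower in CTK2+GAL versus GAL. Among 15 genes of the Groucho/TLE list, 6 were named, and all 6 rose in CTK2+GAL versus GAL, with a median of 1.51 on the log2 scale against 0.01 over all tested genes. They were the corepressors Tle4 (1.18, SE 0.11) and Tle6 (1.34, SE 0.26) and the DNA-binding partners Tcf7 (1.92, SE 0.40), Lef1 (1.67, SE 0.39), Runx1 (3.48, SE 0.42) and Nkx2-2 (0.79, SE 0.063). Tle2 moved in the same direction as these. Among 22 Notch and RBPJ genes, 6 were named, 5 rose and 1 was not called, with a median of 0.82. The ligand genes Dll1 (1.91, SE 0.099) and Dll3 (2.71, SE 0.099), the coactivator gene Maml2 (0.66, SE 0.064), the target gene Hes5 (0.88, SE 0.10) and the E-protein gene Tcf12 (0.76, SE 0.063) rose, and the ligand gene Jag1 had a value of -0.52 (SE 0.096). In this comparison Rbpjl thus fell while the named genes of the list that were called rose. Jag1 also had a negative value. In the averaged cytokine effect its -0.594 passed the call (adjusted p = 6.11e-07 by edgeR's quasi-likelihood test), so Rbpjl was not alone in falling.

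Of 14 ADAM and LGI genes, 2 were named and both fell like Adam11, the sheddase gene Adam17 by 0.78 (SE 0.10) and Lgi3 by 1.06 (SE 0.11) on the log2 scale. Of 20 collagen genes and collagen receptors, 12 were named, of which 4 rose, 5 fell and 3 were not called, with a median of 0.02. Among the collagens of the same fibril-associated class as Col16a1, Col9a1 (-1.52, SE 0.22), Col12a1 (-1.07, SE 0.22) and Col14a1 (-2.13, SE 0.39) fell, and Col9a2 (-0.50, SE 0.19) and Col20a1 (0.54, SE 0.12) were not called. Col22a1 rose, and its GAL libraries held no count, so its fitted fold depends on the prior count and is not given. Col4a2 (0.74, SE 0.085), Col11a1 (0.63, SE 0.11) and the receptor gene Ddr2 (0.86, SE 0.15) also rose, and Col5a1 (-0.79, SE 0.12) and Col11a2 (-2.21, SE 0.13) fell. Col5a2 had a value of 0.82 (SE 0.35). The median averaged GAL difference was -0.02 for the ADAM and LGI list, -0.03 for Notch and RBPJ, -0.06 for Groucho/TLE and -0.11 for the collagens, against 0.00 over all tested genes. Names existed only for genes in the study's table of CTK-2 versus CTL. These lists are therefore partial, and a high share of called genes was built into them, against 17.4% over all tested genes.

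The profiles most like each gene were sought among 1729 named genes, as the smallest root mean square difference of centred log2(CPM + 0.5) values over the 12 libraries. For Adam11 they were Tppp, a tubulin-binding protein of oligodendrocytes, at 0.148, the lysolipid transporter gene Mfsd2a at 0.164 and Tmeff1 at 0.175. For Rbpjl they were Ltbp4, a binding protein of latent TGF-β, at 0.159, Kank2 at 0.161 and Caskin2 at 0.162. For Tle2 they were Rhobtb2 at 0.172, Nebl at 0.185 and the dynamin gene Dnm1 at 0.189. For Col16a1 they were the ubiquitin ligase gene Rnf31 at 0.131, the histone deacetylase gene Hdac7 at 0.167 and Tle6 at 0.171. The median over all named genes was 1.27 for Adam11, 0.948 for Rbpjl, 0.553 for Tle2 and 0.512 for Col16a1.

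**Figure D4:**
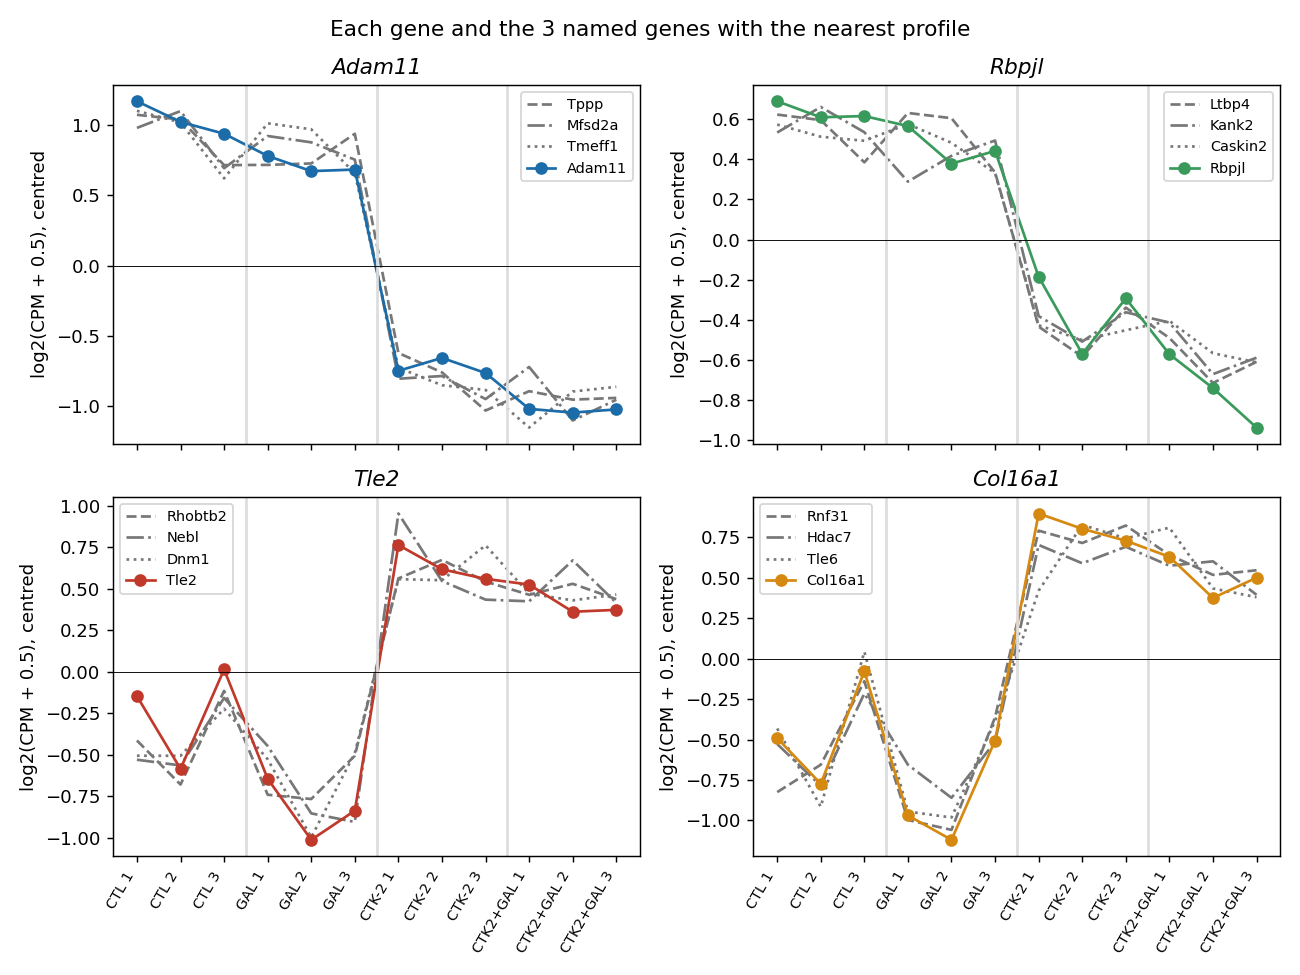
Centred log2(CPM + 0.5) in the 12 libraries for each of the 4 genes (coloured) and the 3 named genes with the nearest profile (grey, dashed or dotted). The cytokine step is shared within each panel, and CTL 3 is the highest CTL library for all genes of the Tle2 and Col16a1 panels.

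The GAL differences of the nearest genes are given beside those of the members as a description, since the members were chosen for large ones. Tppp had GAL differences of -0.14 (SE 0.099) and -0.14 (SE 0.14) without and with cytokines, where Adam11 had -0.34 and -0.31. Ltbp4 had -0.02 (SE 0.086) and -0.16 (SE 0.094), where Rbpjl had -0.19 and -0.43. Rhobtb2 had -0.29 (SE 0.13) and -0.12 (SE 0.10), where Tle2 had -0.69 and -0.24. Rnf31 had -0.24 (SE 0.17) and -0.21 (SE 0.13), where Col16a1 had -0.42 and -0.31. All 12 nearest genes had GAL differences below 0 in both backgrounds, and the search for likeness used the same libraries. Between the members themselves, Tle2 and Col16a1 were the closest pair at 0.203, Adam11 and Rbpjl lay 0.360 apart, and pairs across the cytokine direction lay 1.11 to 1.55 apart.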

How the data were processed

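The 12 RNA libraries fell into 4 groups of 3. The authors deposited raw count values, whole read pairs for every annotated gene. Quality control by FastQC and alignment by STAR are stated in the methods, and per the file headers the pairs were counted with featureCounts 2.0.0 on Ensembl annotation 112 of mRatBN7.2, by strand. Pairs that map to several places are left out, so copies of a gene lose counts.

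Genes averaging 5 counts or more were fitted in R 4.3.3 with edgeR 4.0.16 (TMM, quasi-likelihood, 1 mean per group), and the Benjamini-Hochberg adjustment ran over all 13348 genes. Calls needed an adjusted p up to 0.05 and a log2 fold change of 0.59 or more in size. The SE is that size over the root of F. The fit was tested on simulated data.

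The files hold Ensembl identifiers, and symbols came from a numeric match to the study's supplementary table of CTK-2 versus CTL, which paired 1730 of 1786 entries. Of 1714 with a chromosome in both, 99.9% were on the same one, against 6.01% after shuffling. The members and lists were chosen with earlier results of these data known. Named genes are the members, their listed families, the nearest tested gene without overlap on each side and the 3 most alike profiles. Promoters came from RefSeq (GRCr8). Some genes and motifs are not reported here.

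Same-numbered CTL and GAL libraries deviated together (r of 0.491 to 0.823 over 9412 genes of at least 10 CPM). So did CTL replicate 1 with GAL replicate 2 (0.518) and CTL replicate 2 with GAL replicate 1 (0.337). Only replicate 3 was set apart by number, and the numbers are not shown to pair replicates 1 and 2. Same-numbered CTK-2 and CTK2+GAL libraries did not deviate together (-0.05 to 0.11). Alternatives were DESeq2 1.42.0, its size factors, library totals, no filter, filterByExpr, dropping the 15% of genes of least interquartile range, length offsets, a replicate block, only the groups compared, and each replicate left out. Leaving out CTL and GAL replicates 3 together, a block within 2 groups and other scalings of the overlap were chosen after seeing the data.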

Additional observations from a re-analysis of the deposited data

How the results depend on the processing

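Among the 587 values recomputed under the alternatives, cytokine differences of the 4 genes kept their direction and stayed above 0.59 in size. GAL values carried no call, and those of Tle2 crossed this size threshold. In GAL versus CTL, Tle2 was -0.689 with all libraries and -0.547 without CTL replicate 3. It was -0.586 without GAL replicate 2 and -0.569 without both replicates 3. Its GAL difference between backgrounds was 0.454 with all libraries and 0.597 without CTL replicate 2. In every other setting these Tle2 values stayed on their side. The averaged cytokine effect ran from -1.80 to -1.73 for Adam11, -1.16 to -1.06 for Rbpjl, 1.03 to 1.18 for Tle2 and 1.21 to 1.50 for Col16a1, and the number of genes called from 2341 to 2909 (2497 as reported). Every GAL difference of the 4 genes stayed below 0 in both backgrounds. Their choice by GAL shifts in these same libraries favours this, so it is no support for a GAL effect. With the replicate block the averaged cytokine effect was -1.77, -1.12, 1.09 and 1.31, GAL versus CTL was -0.34, -0.17, -0.66 and -0.41, and no call changed. Across the alternatives the genes at an adjusted p of at most 0.05 numbered 0 to 13 in GAL versus CTL, 0 to 16 in CTK2+GAL versus CTK-2, 0 to 25 in the averaged GAL effect and 0 to 10 in its difference between backgrounds, against 0 as reported. The highest numbers came without the filter on low counts, except the 16, which came with a replicate block within the 2 groups compared. Without CTL and GAL replicates 3 the numbers were 3, 0, 5 and 6. The cause was not tested. Depth limits Tle2 most, with 26 counts in GAL replicate 1.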
